A study of Mus musculus with 8 samples.

Results

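The Cbx (chromobox) genes encode chromodomain proteins that read methylated histone H3 tails. They were followed here in mouse embryonic stem (ES) cells of the line E14Tg2A.4, which grows without feeder cells, on RNA expression arrays. The members were the 7 genes Cbx1, Cbx2, Cbx3, Cbx5, Cbx6, Cbx7 and Cbx8, chosen as non-control array probes that carry one of these names, of 31796 gene names on the array. They are read by 12 probes of 55681, 6 for the Polycomb Cbx genes (Cbx2, Cbx6, Cbx7, Cbx8) and 6 for the heterochromatin protein 1 (HP1) genes (Cbx1, Cbx3, Cbx5). The 8 arrays held RNA from 4 cultures left untreated, for which the labels name no further agent or allele, and from 4 cultures treated with retinoic acid (RA) for 72 h, all prepared as biological replicates. RA is a vitamin A derivative that drives ES cells out of self-renewal. The study's methods state that the medium of the RA treatment lacked leukemia inhibitory factor. A change after RA is therefore one of the treatment as a whole, and the part of each was not tested.

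The Polycomb Cbx proteins are alternative subunits of Polycomb repressive complex 1 (PRC1). Their chromodomain binds trimethylated lysine 27 of histone H3, the mark that Polycomb repressive complex 2 (PRC2) lays down at silent developmental genes, and PRC1 adds ubiquitin to histone H2A there. Cbx7 is known as the main Polycomb Cbx of self-renewing ES cells, with Cbx2 and Cbx8 taking over as cells differentiate. Cbx5, Cbx1 and Cbx3 encode HP1 alpha, beta and gamma, whose chromodomain binds methylated lysine 9 of histone H3 in heterochromatin and whose chromo shadow domain forms dimers and recruits partner proteins.

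Promoter windows were available in RefSeq (GRCm38.p6) for 6 of the 7 genes, in 8 windows of 300 bases, each from 250 bases before to 50 bases after an annotated start. No window was at hand for Cbx2. The windows of Cbx8, Cbx7 and Cbx6 are shown because these Polycomb genes rose (Cbx8), fell (Cbx6) or gave a named probe at background (Cbx7). Capitals mark the E-box CACGTG, the cyclic AMP response element TGACGTCA and the CCAAT box, each searched on both strands. They are chr11:119040864-119041163 (Cbx8), chr15:79932597-79932896 (Cbx7) and chr15:79834284-79834583 (Cbx6), all on the minus strand and written 5′ to 3′.
Cbx8 promoter: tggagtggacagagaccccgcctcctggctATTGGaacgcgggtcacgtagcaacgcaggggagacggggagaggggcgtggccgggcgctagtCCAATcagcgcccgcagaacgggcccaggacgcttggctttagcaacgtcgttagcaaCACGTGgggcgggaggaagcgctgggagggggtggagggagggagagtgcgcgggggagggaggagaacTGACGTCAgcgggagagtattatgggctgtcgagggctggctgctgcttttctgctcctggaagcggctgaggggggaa
Cbx7 promoter: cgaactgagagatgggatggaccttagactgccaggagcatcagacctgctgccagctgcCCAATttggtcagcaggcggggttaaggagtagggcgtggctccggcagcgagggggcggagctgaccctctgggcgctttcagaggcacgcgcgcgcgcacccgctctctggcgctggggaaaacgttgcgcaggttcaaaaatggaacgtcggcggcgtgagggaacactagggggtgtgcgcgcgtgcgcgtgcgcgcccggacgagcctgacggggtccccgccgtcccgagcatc
Cbx6 promoter: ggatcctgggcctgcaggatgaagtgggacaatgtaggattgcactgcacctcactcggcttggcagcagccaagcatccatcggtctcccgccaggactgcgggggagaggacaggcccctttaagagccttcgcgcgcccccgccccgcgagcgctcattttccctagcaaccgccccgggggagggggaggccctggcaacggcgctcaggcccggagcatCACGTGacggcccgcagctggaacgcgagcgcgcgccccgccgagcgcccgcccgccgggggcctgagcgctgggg
The Cbx8 window held the single TGACGTCA found in the 8 windows, a motif present in 1.79% of all 32851 promoter windows of the table. It also held a CACGTG, as did Cbx6 and 1 window of Cbx5, against 7.15% of all windows, and 2 CCAAT boxes, a motif found in 37.4% of all windows. The Cbx7 window held 1 CCAAT box and no CACGTG. The GC box GGGCGG was in 7 of the 8 windows, and in 35.7% of all windows. Neither the nuclear receptor half-site AGGTCA (16.3% of all windows) nor TATAAA (13.6%) was found in any of the 8. The exact direct repeat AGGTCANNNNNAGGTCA, a strict form of the classical RA response element, was likewise not found. Only 3 of all windows hold it, so its absence says little, and looser forms were not searched. None of these motifs overlapped another in the 8 windows. CpG pairs numbered 24 in the Cbx8 window, 33 in that of Cbx7 and 31 in that of Cbx6, where the median of all windows was 7. These letters describe the windows alone.

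Each value below is a log2 intensity relative to the 75th percentile of its array, so a negative value is a spot dimmer than that percentile. A probe was called when its adjusted p (limma, Benjamini-Hochberg over all 55681 probes) was under 0.05 and its fold change above 1.5. Between 56.7% and 62.7% of spots per array exceeded background clearly, and none was saturated. Across all probes 12.9% were called higher and 21.6% lower after RA, and in 37.7% the conditions did not overlap. These shares count dim probes too. A filter on dim probes kept 32379 that exceeded background clearly throughout either condition, with 6767 called higher and 10023 lower. Of the probes kept 51.9% were called, against 34.6% of all probes. Overlap was not counted within this filter. The median of all probes fell by 0.28 on this scale, so the change of each Cbx probe is also given relative to that median. Changes of other genes and transcripts are given without that step. With each array centred on its median instead, 9529 probes were higher and 8025 lower, against 7196 and 12044 here, and with quantile normalization 8152 and 8704. Probes differ in how they hybridise, so levels are compared between arrays and not between probes.

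The arrays differed in the cell types whose markers they carried. All 7 markers of ES cells on the array, Pou5f1 and Nanog among them, were well above background in untreated cells and fell after RA, and their summed level went from 8.02 to 8.49 in untreated cells down to 2.88 to 4.88. All 7 genes of a list of RA response genes rose. These sums were taken on the linear scale, so the brightest genes of a list set them. The list of extraembryonic endoderm rose in 7 of 7 genes, with a summed level of 4.90 to 5.11 before and 6.66 to 6.90 after RA. Its untreated sum was mostly that of Lamb1 (mean 4.92), where the next brightest gene, Col4a1, had 0.06. Of the neural list 1 of 7 rose and 2 fell, and its sum was 2.61 to 3.28 against 3.38 to 3.56. The gene that rose was Nes (by 2.10), while Tubb3 fell by 2.22 and Neurog1 by 0.61. The mesoderm and muscle list rose in 4 of 6 genes and fell in 1 (0.98 to 1.56 against 7.88 to 8.79). The fibroblast list rose in 6 of 7 genes (0.22 to 1.07 against 4.43 to 5.29), and its members Twist2 and Postn were not well above background on any untreated array. The part of these cell types in the Cbx changes was not tested, and in such bulk RNA fewer cells of a type and less RNA per cell cannot be told apart.

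The Polycomb Cbx genes moved in both directions after RA. Of their 6 probes 2 were called higher (Cbx8 and Cbx2), 3 were called lower (all of Cbx6) and 1 was not called (Cbx7), with a median change of -0.55 beside -0.28 for all probes. The conditions did not overlap in 4 of the 6. Among all probes, dim ones included, the shares were 12.9% higher, 21.6% lower and 37.7% without overlap.

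**Figure D1:**
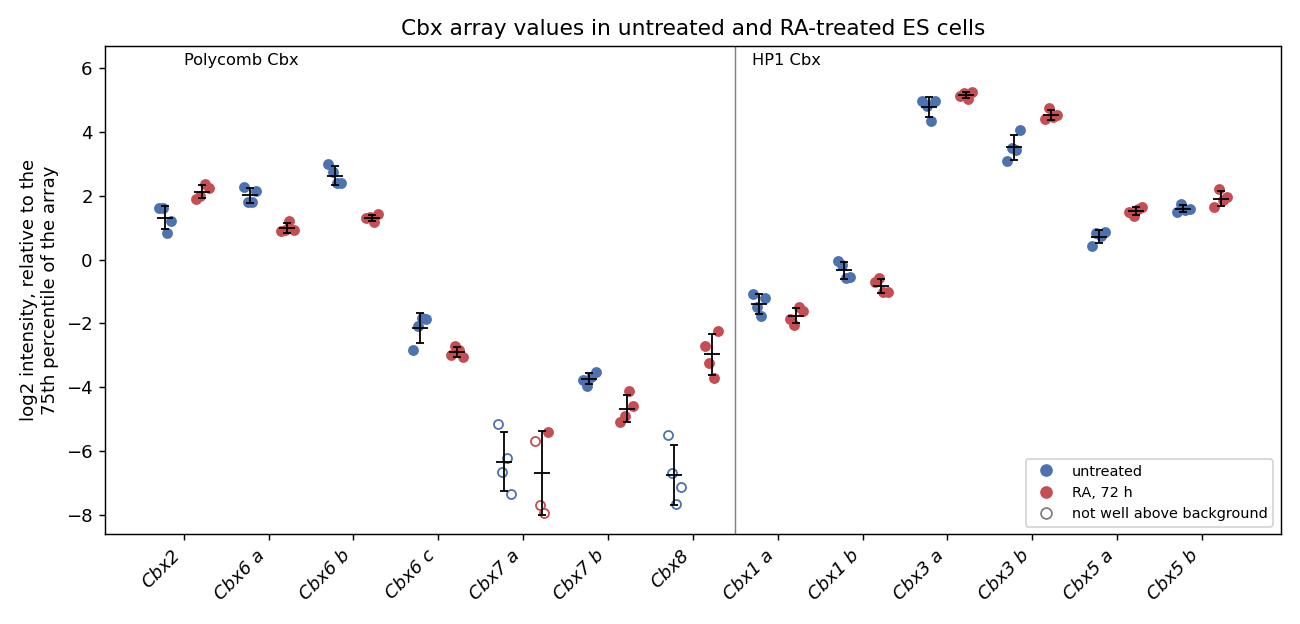
Log2 intensity relative to the 75th percentile of the array (y axis) for every probe of the 7 Cbx genes and the second Cbx7 probe (x axis) on the 4 untreated (blue) and 4 RA-treated (red) arrays, with means and SD as black bars. Open points were not well above background, and letters count the probes of a gene. Cbx8 was open on all 4 untreated arrays and filled on all 4 RA-treated arrays.

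Cbx8, a Polycomb Cbx that binds PRC1 through its carboxy-terminal Cbox, is read by 1 probe (A_52_P229997, chr11:118899777-118899836, mm9, minus strand). Its untreated values were -5.49, -6.70, -7.67 and -7.14. On none of these arrays was the spot well above background. After RA the values were -2.69, -3.24, -3.70 and -2.22, and the spot was well above background on all 4 arrays. The lowest RA value thus lay above the highest untreated one. The fitted change was 3.79 (SE 0.48, adjusted p = 0.000325 by limma), or 4.07 above the median of all probes. Because the untreated signal is only bounded, Cbx8 was at least 5.56-fold higher after RA on this scale. That bound sets the RA mean of -2.96 ± 0.64 (SD, n = 4) against the lowest signal that counted as well above background on each untreated array, -5.69 to -5.21.

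Within the slide that carried untreated replicates 1 and 3 and RA replicates 1 and 4 Cbx8 was at least 8.02-fold higher after RA (a bound of 3.00 on the log2 scale), and within the other slide at least 3.85-fold higher (1.95), with 2 arrays of each condition on each slide and the untreated arrays not well above background on either. These bounds within slides were chosen after seeing the data. Normexp background correction, which adds an offset of 50 to the intensities, gave a change of 1.16, the smallest of the alternatives, and Cbx8 was called higher in all 21 of them. Normexp with quantile normalization gave 1.34 and the authors' processed values 1.33. These 3 changes lie below the bound of 2.47, which holds for the main scale only.

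Cbx2, which also compacts chromatin as a PRC1 subunit, was called higher too (A_52_P13730, chr11:118892363-118892422, mm9, plus strand). Its untreated values were 1.60, 1.62, 0.83 and 1.22, and those after RA 1.91, 2.01, 2.37 and 2.25. All 4 RA values exceeded all untreated values, with untreated replicate 3 the lowest. The change was 0.81 (SE 0.21, adjusted p = 0.0152 by limma), a 1.76-fold increase from 1.32 ± 0.37 to 2.13 ± 0.21 (SD, n = 4), and 1.09 relative to the median of all probes. The increase was 0.86 within the first slide and 0.76 within the second, where with 2 arrays a condition the adjusted p values were 0.172 and 0.165. A test against a change of 1.5-fold, limma's treat, did not call it (adjusted p = 0.504). The Cbx2 and Cbx8 probes lie 7.41 kb apart on chromosome 11, on opposite strands.

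Cbx6, a Polycomb Cbx whose functions are less well described than those of the others, fell at all 3 of its probes, which begin at bases 5096, 3141 and 1444 of its transcript (Cbx6 a, b and c in the plots). The probe at base 3141 (A_51_P391764, chr15:79656576-79656635, mm9, minus strand) gave 3.00, 2.76, 2.39 and 2.40 in untreated cells and 1.30, 1.34, 1.18 and 1.43 after RA. Every untreated value exceeded every RA value by a margin larger than the range of the RA values. Its change was -1.33 (SE 0.18, adjusted p = 0.000400 by limma), or -1.05 relative to the median of all probes, and untreated cells stood 2.51-fold above RA-treated cells. This call held in all 21 alternatives, with changes from -1.41 to -1.05.

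At base 5096 the probe A_51_P221428 gave 2.27, 1.80, 1.82 and 2.16 in untreated cells against 0.89, 0.93, 1.22 and 0.94 after RA. The conditions did not overlap here either. The change was -1.02 (SE 0.17, adjusted p = 0.00128 by limma), or -0.74 relative to the median of all probes. Within the slides it was -1.13 and -0.90, with adjusted p values of 0.0554 and 0.101. At base 1444 the signal (A_55_P2111741) was dimmer, with -2.85, -2.07, -1.82 and -1.87 before RA and -3.00, -2.71, -2.85 and -3.05 after it. Untreated replicate 1 lay among the RA values. The change was -0.75 (SE 0.24, adjusted p = 0.0355 by limma), which relative to the median of all probes is -0.47, less than 1.5-fold. The call was lost in 14 of 21 alternatives, among them quantile normalization (-0.61, adjusted p = 0.118) and 6 of the 8 fits without 1 array, whose changes ran from -0.98 to -0.64.

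Cbx7, the Polycomb Cbx most often linked to ES cell self-renewal, could not be measured at the probe that carries its name. This probe (A_55_P1980401, chr15:79746240-79746299, mm9, minus strand) gave -5.15, -6.67, -6.21 and -7.35 in untreated cells and -5.69, -7.71, -7.95 and -5.40 after RA. It was well above background only on RA replicate 4. No fold change is given, and the fit did not call it (-0.34, SE 0.68, 95% interval -1.89 to 1.20, adjusted p = 0.695 by limma). Relative to the median of all probes the fitted value was -0.06. The sign of the fitted value turned with the scaling and the slide, over a range of -0.82 to 0.13.

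A second probe, described as chromobox homolog 7 but named only by a transcript identifier, was added after its values had been seen (A_55_P1980408, chr15:79748605-79748664, mm9, minus strand, Cbx7 b in the plots). It was well above background on all 8 arrays, with -3.78, -3.96, -3.68 and -3.53 in untreated cells and -5.10, -4.89, -4.13 and -4.59 after RA. No RA value reached the lowest untreated value. The change was -0.94 (SE 0.22, adjusted p = 0.00939 by limma), a 1.92-fold higher signal in untreated cells, or -0.66 relative to the median of all probes. The call was lost in 8 of 21 alternatives, with a change of -0.66 (adjusted p = 0.0845) after quantile normalization and -0.31 in the values that the authors had processed. The Cbx6 and Cbx7 probes lie at least 88 kb apart on chromosome 15, on the same strand.

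**Figure D2:**
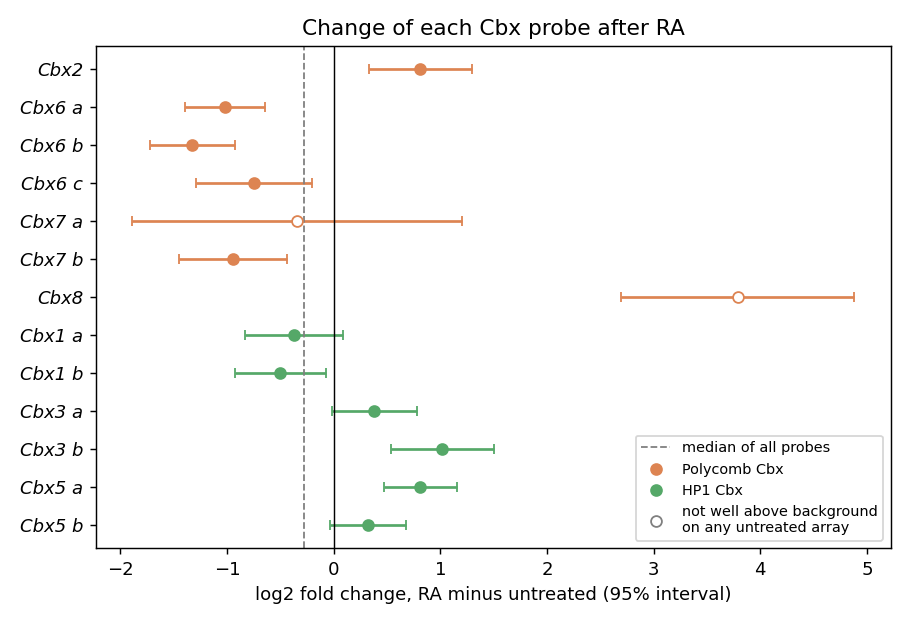
Log2 fold change of each Cbx probe, RA minus untreated, with its 95% interval from limma (x axis) by probe (y axis), Polycomb Cbx in orange and HP1 Cbx in green. Open points were not well above background on any untreated array, and the dashed line at -0.28 is the median of all probes. Cbx8 is drawn at its fitted 3.79 (at least 2.47 on the log2 scale), and the other Cbx probes run from -1.33 to 1.02.

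Among the HP1 genes Cbx3 and Cbx5 rose at 1 probe each and Cbx1 was not called. Of the 6 HP1 probes 2 were called higher, 1 of Cbx3 and 1 of Cbx5, and none was called lower. Among all probes, dim ones included, 12.9% were called higher and 21.6% lower. The median change was 0.35 over the 6 HP1 probes and -0.28 over all probes. The number of HP1 probes called higher was 4 with each array centred on its median, 3 with quantile normalization and in the authors' processed values, 1 within the first slide, and 0 within the second and in the test against a 1.5-fold change. The conditions did not overlap in 3 of the 6, beside 37.7% of all probes, dim ones included.

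Cbx3 (HP1 gamma, found along transcribed genes as well as in heterochromatin) is read by 2 probes that begin at bases 517 and 1684 of the same transcript. The probe at base 517 is shown because it was called and the other was not (A_55_P2017038, chr6:51431757-51431816, mm9, plus strand, 60 bases, Cbx3 b in the plots).
Cbx3 probe: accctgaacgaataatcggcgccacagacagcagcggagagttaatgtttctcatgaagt
This probe gave 3.09, 3.50, 3.43 and 4.05 in untreated cells and 4.40, 4.75, 4.48 and 4.52 after RA. The conditions did not overlap, with untreated replicate 1 the lowest. The change was 1.02 (SE 0.21, adjusted p = 0.00494 by limma), a 2.03-fold increase, and 1.30 relative to the median of all probes. It was 1.20 within the first slide (adjusted p = 0.0419) and 0.84 within the second (adjusted p = 0.146).

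At base 1684 the other probe (A_55_P1969072, Cbx3 a) gave 4.98, 4.82, 4.35 and 4.98 in untreated cells and 5.13, 5.22, 5.04 and 5.26 after RA. All RA values were above all untreated values, but by little. The change of 0.38 (SE 0.18, 95% interval -0.02 to 0.78, adjusted p = 0.125 by limma) was not called, and was 0.66 relative to the median of all probes. It was called under quantile normalization (0.61, adjusted p = 0.00362), with each array centred on its median (0.66) and in the authors' processed values (0.62). The change of this probe was smaller than that of the probe at base 517 by 0.64, a difference with an exact permutation p of 0.0286, two-sided, the smallest that 4 against 4 arrays can give. With the replicate numbers as pairs the exact permutation p was 0.125, the smallest that 4 pairs can give, and without any 1 of the RA arrays it was 0.0857. Over the 6 pairs of probes compared within Cbx genes its adjusted p was 0.171. A Cbx3 pseudogene transcript on chromosome 11 (4732414G09Rik) also rose, by 0.84 (adjusted p = 0.00865 by limma), and what cross-hybridisation adds to any of these probes was not tested.

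Cbx5 (HP1 alpha, a core protein of pericentromeric heterochromatin) is read at bases 1121 and 3040 of its transcript (Cbx5 a and b in the plots). The probe at base 1121 (A_55_P2090179, chr15:103029698-103029757, mm9, minus strand) gave 0.42, 0.83, 0.75 and 0.87 in untreated cells against 1.50, 1.38, 1.59 and 1.64 after RA. The groups were clearly separated. The change was 0.81 (SE 0.15, adjusted p = 0.00275 by limma), a 1.76-fold increase, and 1.09 relative to the median of all probes. Within the slides it was 0.99 and 0.64 (adjusted p = 0.0708 and 0.186). At base 3040 the probe A_55_P2360661 gave 1.48, 1.75, 1.54 and 1.60 against 1.64, 2.20, 1.86 and 1.96. The conditions overlapped, and the change of 0.32 (95% interval -0.04 to 0.68, adjusted p = 0.146 by limma) was not called, but with each array centred on its median it was 0.60 and called (adjusted p = 0.0272). Relative to the median of all probes it was 0.60. The changes of the 2 probes differed by 0.49, with an exact permutation p of 0.0857 and an adjusted p of 0.257 over the 6 pairs.

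Cbx1 (HP1 beta, which also bridges methylated nucleosomes as a dimer) was not called at either probe. The probe A_55_P2051766 (chr11:96669893-96669952, mm9, plus strand, Cbx1 a) ran from -1.76 to -1.07 in untreated cells and from -2.04 to -1.50 after RA, with a change of -0.37 (95% interval -0.83 to 0.08, adjusted p = 0.182 by limma). The probe A_55_P2154263 (chr11:96665022-96665081, Cbx1 b) ran from -0.57 to -0.05 and from -1.03 to -0.57, with a change of -0.50 (95% interval -0.92 to -0.08, adjusted p = 0.0638 by limma). The conditions overlapped at both, narrowly at the second. Relative to the median of all probes the changes were -0.09 and -0.22. Neither probe was called in any of the 21 alternatives.

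**Figure D3:**
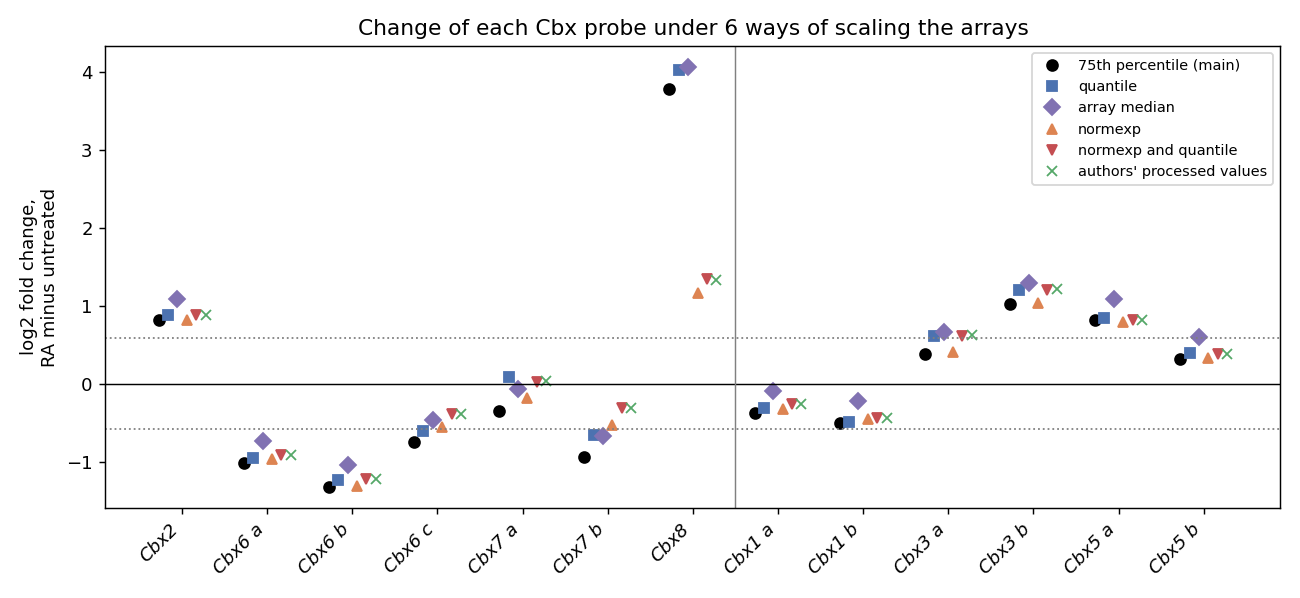
Log2 fold change, RA minus untreated (y axis), of each Cbx probe (x axis) under 6 ways of scaling or background correction, shown by marker. Dotted lines mark a change of 1.5-fold in each direction. Cbx8 lay at 1.16 to 4.07 and above the dotted line in all 6, Cbx6 a and b lay below the lower line in all 6, and only the dim probe Cbx7 a fell on both sides of 0.

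The array patterns of other genes were set beside those of 4 Cbx genes over the 8 arrays, by the root mean square difference of log2 values centred on each gene's mean, among 13807 genes. Nearest to Cbx8 were Zic1 (0.43), Hoxd9 (0.44) and Tbx15 (0.48), which changed by 4.14, 3.73 and 3.31 after RA, though the 4 untreated Cbx8 values in these distances were at background and carry no order. A second probe of Zic1 fell by 2.08 (adjusted p = 0.000311 by limma), so that gene is uncertain. Nearest to Cbx2 were Zfyve28 (0.10), Siah2 (0.11) and Myl6b (0.12). Of the other 3 probes of Zfyve28, 2 changed by -2.68 and -2.88 and were called lower, and 1 was not well above background on any array. Nearest to the Cbx5 probe at base 3040 were Elk4 (0.09), Olfr544 (0.09) and Sgpp1 (0.12), and 2 other probes of Elk4 were not called, with changes of 0.051 and 0.0047. For Cbx7, whose named probe was at background, the distances to Tra2b (0.33), Gm8618 (0.40) and E2f4 (0.41) describe values without order.

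The proteins that work with the Cbx proteins were read from lists, each gene by its brightest probe. Of all gene names 14.9% were called higher and 21.4% lower, with a median change of -0.27. Those shares include dim genes, whereas every listed partner gene exceeded background clearly on each array. The filter on dim probes left 32379 probes, of which 6767 were called higher and 10023 lower (median -0.23). These are counts of probes, and no such count was made by gene name. Of the 17 PRC1 partners 9 were higher and 5 lower, with a median change of 0.67. Within the first slide, within the second and under treat, 3, 5 and 5 were higher, and 4, 3 and 4 lower. Phc2, a Polyhomeotic protein, rose by 2.76 (SE 0.19, adjusted p = 1.46e-05 by limma) and Yaf2 rose by 2.30, while Phc1, the Polyhomeotic protein of ES cells, fell by 2.70 and Rybp, which with its homologue Yaf2 occupies the site on Ring1b where a Cbx protein can bind, fell by 1.58. Both enzymes of PRC1 rose, Ring1 by 0.80 and Rnf2 (Ring1b) by 0.79, and were chosen after their values had been seen.

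Of the 11 PRC2 genes 2 were higher and 7 lower (median -0.97). Jarid2 fell by 2.60 and Aebp2 fell by 1.77, both accessory subunits, while the histone binding subunit Rbbp7 rose by 1.08 and Phf1 by 0.64. Without untreated replicate 4 or RA replicate 1 or 2, and under normexp, 1 PRC2 gene was called higher. Within the first slide, within the second and under treat, 0, 0 and 1 were higher, and 5, 5 and 4 lower.

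Of the 21 HP1 partners 2 were higher, 9 lower and 10 not called (median -0.55). Suv39h1, a histone H3 lysine 9 methyltransferase, rose by 0.79 and Ehmt2 (G9a) by 0.60, but only 1 gene was called higher without untreated replicate 1, 2 or 3 or RA replicate 3 or 4. With each array centred on its median 6 HP1 partners were lower. Within the first slide, within the second and under treat, 0, 1 and 0 were higher, and 3, 4 and 4 lower. The lysine 20 methyltransferase gene Suv420h1 fell by 1.88 and Sgol1, which protects sister chromatid cohesion, fell by 1.65. Of the 17 other genes with a chromodomain or a related domain 2 were higher and 6 lower (median -0.32), or 4 and 4 with each array centred on its median, with Msl3 up by 2.38 and Chd3 by 2.08, while Cdyl2 fell by 2.94 and Chd5 fell by 2.10.

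**Figure D4:**
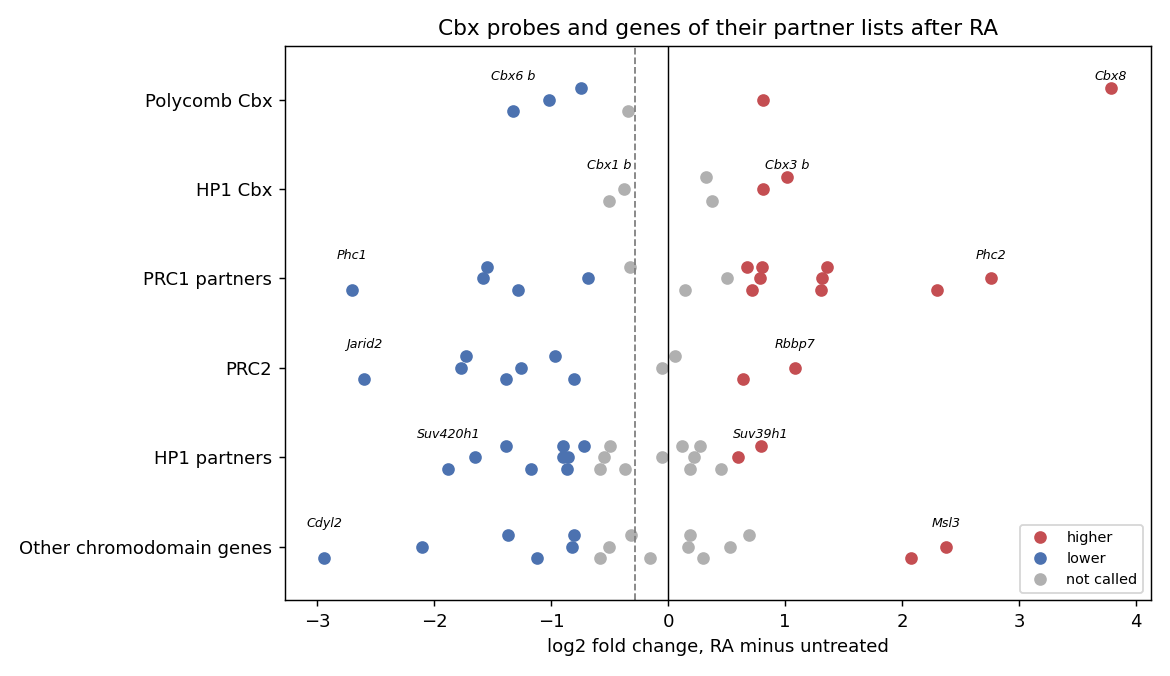
Log2 fold change, RA minus untreated (x axis), of the Cbx probes that carry a member's name and of the genes of 4 lists (rows), red where called higher, blue where called lower and grey where not called, with the lowest and highest member of each row named. The dashed line is the median of all probes at -0.28. Of the 66 listed partner genes Phc2 at 2.76 is the highest and Cdyl2 at -2.94 the lowest, and the point of Cbx8 is a fitted value whose untreated signal was at background, with a lower bound of 2.47.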

How the data were processed

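Per the labels, Cy3-labelled RNA of each culture was hybridized to a 1-colour Agilent array. Scanner files of Agilent Feature Extraction (version 10.7.3.1) were deposited by the authors, in which the processed signal is a background-corrected intensity without scaling between arrays, and flags mark whether a spot exceeded background, saturated or was an outlier. They also deposited log2 values that share 1 median (6.76) on every array, whose background correction and normalization are not given in the sources used here. These values called 6275 probes higher and 6583 lower, close to the 6305 and 6603 of normexp with quantile normalization. The 2 are therefore not separate checks among the alternatives.

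In R (version 4.3.3), the 75th percentile of the 59305 non-control spots of an array was subtracted from its log2 processed intensity. Control spots and spots with an outlier flag were left out, spots of a probe were averaged and dim probes were kept. RA-treated and untreated arrays were tested against each other in limma (version 3.58.1, lmFit and eBayes). A probe not well above background on any array of a condition was bounded as described for Cbx8. Figures were drawn with matplotlib (version 3.10.9). Of these steps only the limma fit and the calling of probes were run on simulated data, with an outcome not given here. The number of arrays limits the precision.

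The members, lists and tests were chosen with earlier results of these data known. Lists are described by counts and medians only, a gene by its probe of highest mean, and from each partner list the 2 called genes with the largest increase and the 2 with the largest decrease are named. Nearest patterns were sought among names in the RefSeq table of gene symbols. For 1 marker of ES cells no probe carried the listed name. A further gene of the family is not reported here (1 gene).

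There were 2 slides, each holding 2 untreated and 2 RA-treated arrays, and scan time coincided with slide. Replicates are numbered 1 to 4 in both conditions. Over 27493 probes that exceeded background clearly on every array, the departures of arrays with equal numbers from their condition means had correlations of 0.186, 0.189, 0.104 and 0.151, against at most 0.142 for unequal numbers. This check does not settle whether equal replicate numbers mark pairs, as replicate 3, at 0.104, lay below 0.142. Replicates 1 and 2, with the highest values, each share a slide between conditions and replicates 3 and 4 do not, so slide and pairing are partly confounded. The fits and permutations reported as main are unpaired, and the pairing was tried as an alternative, for pairs of probes an addition made after seeing the data. Alternatives were quantile normalization, median centring, normexp (offset 50) with either scaling, the authors' values, a filter on dim probes, outlier spots kept, the slide or replicate as a block, each slide alone, each array left out, limma's treat, and an intensity trend with robust variance.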

Additional observations from a re-analysis of the deposited data

Results flagged for a closer look

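1 value stood apart within its condition. The Cbx6 probe at base 5096 gave 1.218 on RA replicate 3, where the other RA arrays gave 0.894 to 0.935, a gap beyond the limit of Dixon's test at 95%. Each probe was examined in both conditions, 26 groups of 4 arrays in all, of which chance flags about 1.3. Without that array the change of the probe was -1.09 (adjusted p = 0.00245 by limma), against -1.02 with it.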

How the results depend on the processing

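Direction and call of Cbx8 and of the Cbx6 probe at base 3141 were kept in all 21 alternatives, and no called Cbx probe changed sign in any. The replicate block changed no call of a Cbx probe (Cbx8 3.79, adjusted p = 0.000515, and Cbx2 0.81, adjusted p = 0.0493, by limma). Within slide 1, within slide 2 and under treat, the Polycomb Cbx probes called higher fell from 2 to 1 each, and those called lower from 3 to 1 each. The HP1 Cbx probes called higher were 1 within slide 1, 0 within slide 2 and 0 under treat, fits with fewer arrays or a stricter test, and 4 with each array centred on its median. The HP1 probes called lower stayed at 0 in all alternatives. The partner genes of the 4 lists called higher (15) became 5, 8 and 8 within slide 1, within slide 2 and under treat, and those called lower (27) became 15, 16 and 16. With each array centred on its median 19 were higher and 20 lower. The cause was not tested beyond the construction of these fits. Values of probes at background, Cbx8 in untreated cells and the named Cbx7 probe, carry no order, and the array cannot show changes of these genes below its background. Of the 6 pairs of probes, those of Cbx6 at bases 5096 and 3141 without untreated replicate 4 (0.44) and of Cbx5 without RA replicate 2 (0.63) reached an exact permutation p of 0.0286. So did, in the authors' values, the changes of the Cbx6 probes at bases 5096 and 3141 minus that at base 1444 (-0.52 and -0.84) and, under normexp, that at base 3141 minus that at base 1444 (-0.76). As pairs by replicate number no p was under 0.125.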

Other observations

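Other probes at the Cbx loci, chosen after their values had been seen, gave the following. A transcript without a gene name, on the strand of Cbx1, has a probe starting 640 bases before the start of the Cbx1 probe A_55_P2051766 (chr11:96669253-96669312, mm9). That probe lies between both Cbx1 probes, and whether it reads Cbx1 RNA was not tested. Its signal fell by 0.62 after RA (SE 0.15, adjusted p = 0.0120 by limma), from 4.27 ± 0.21 to 3.65 ± 0.12 (SD, n = 4), where both Cbx1 probes were not called. A transcript on the strand opposite to Cbx7, with a probe whose start lies 159 bases from the start of the named Cbx7 probe (chr15:79746081-79746140, mm9), gave -3.02 ± 0.79 in untreated cells and -3.82 ± 0.58 after RA (SD, n = 4), a change of -0.80 that was not called (adjusted p = 0.173 by limma). The second window of Cbx5 in the promoter table held 8 CpG pairs, the other 29.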
